A study of Mus musculus with 4 samples.

Results

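Alpha and beta tubulin, the 2 proteins that pair into the building block of microtubules, are each encoded by several genes, called isotypes. The account covers 9 of them, 4 alpha genes (Tuba1a, Tuba1b, Tuba1c and Tuba4a) and 5 beta genes (Tubb2a, Tubb2b, Tubb3, Tubb5 and Tubb6). They were taken by symbol, and each symbol matched 1 line in every table, so all 9 were found among 22552 symbols. The cells were mouse spermatogonial stem cells, the germ cells that renew themselves and found spermatogenesis, from testes of 5-7-day-old DBA/C57 F1 males. They carried an inducible knockout of the microRNA miR-202 and were plated on laminin overnight. Cells of the treated group then received 10 µg/ml doxycycline, the inducing drug, for 2 days, and the untreated group was kept without it. Each group holds 2 RNA-seq libraries, and the clones named are iKO-SC-1 and iKO-SC-2, each a line that is 1 clone. The genotype given for every library is wild type. A clone treated with doxycycline but lacking the inducible construct was not analysed here, so effects of the drug and of the knockout cannot be told apart.

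Microtubules form the mitotic spindle, the tracks for intracellular transport and the core of cilia and of the sperm tail. Isotypes of one family differ mostly in the last stretch of the protein, the acidic tail that projects from the microtubule surface and carries modifications such as glutamylation. Cells also adjust tubulin mRNA to the pool of free dimers: excess soluble tubulin triggers decay of alpha and beta tubulin mRNAs while they are being translated. In mammals some isotypes are broadly expressed, others are typical of neurons or of the testis.

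Values are FPKM, fragments scaled for transcript length and library size, and may therefore be compared between genes. The FPKM of a library summed to between 309153 and 320243. Steps among the lowest values put the depths at 1.34 for untreated replicate 1, 1.22 for doxycycline replicate 2 and 1.55 for untreated replicate 2, in units of doxycycline replicate 1. Mir202, the targeted gene, was listed at 0 in all 4 libraries, as were 605 of 606 microRNA symbols, so neither the knockout nor the labels can be checked with it. The 15 markers of spermatogonia all averaged at least 1 FPKM, led by the germ cell gene Dazl at a mean of 291 FPKM. Their sum ran from 986 to 1029 FPKM with doxycycline and from 1011 to 1016 without. With the replicate number as a block in the fit, 2 of the 15 were lower in limma's test: Nanos3, a germ cell RNA regulator, at a log2 change of -0.30 (adjusted p = 0.0413), and Utf1, a gene near Mir202, at -0.30 (0.0479). Of all tested genes 0.973% were called lower in that fit, and without the block the limma adjusted p of the pair was 0.212 and 0.215. Genes averaging 1 FPKM or more were tested, 11924 in all, of which 33 passed limma's test at an adjusted p under 0.05 (0.277%), 26 higher and 7 lower. In bulk RNA, a change in the share of cells that express a gene and a change in the RNA per cell cannot be told apart.

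Before the values, the coding sequences show how alike these genes are. The coding sequences of Tuba1a and Tuba1b were identical at 98.3% of 1356 aligned bases, those of Tuba1b and Tuba1c at 98.4% of 1350 (GENCODE M21).

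Reads from such genes can fit several copies. Of all 100-base windows of the coding sequence, 81.5% in Tuba1a, 90.9% in Tuba1b and 80.4% in Tuba1c occurred unchanged in a transcript of another symbol. For Tubb2a and Tubb2b, which were 96.5% identical, the shares were 45.0% and 46.7%. Over whole transcripts the 100-base shares were lower, at 65.8% for Tuba1a, 73.0% for Tuba1b and 53.4% for Tuba1c. They were 36.9% for Tubb2a and 27.7% for Tubb2b. By contrast, no 100-base coding window of Tuba4a, Tubb3, Tubb5 or Tubb6 was shared. How the authors assigned reads that fit several copies is not given in the sources used here, so the split among Tuba1a, Tuba1b and Tuba1c, and between Tubb2a and Tubb2b, is uncertain. The sum over each such group does not depend on that split, except for reads shared with other symbols, and is given beside the single genes.

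**Figure D1:**
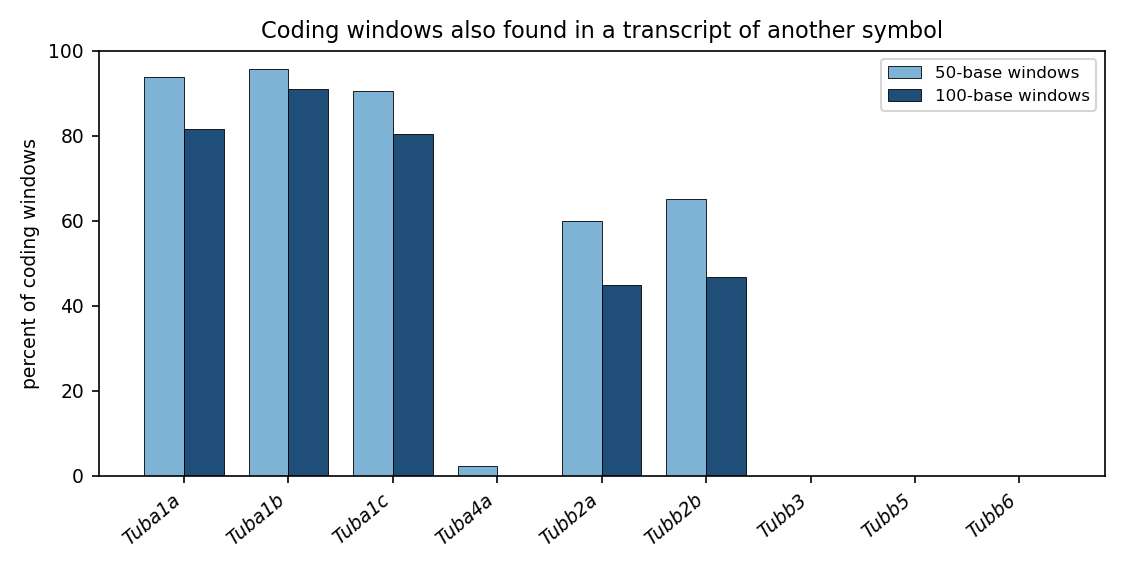
Percent of coding windows of 50 bases (light bars) and 100 bases (dark bars) of each of the 9 genes that occur unchanged in a GENCODE M21 transcript of another symbol. The 3 Tuba1 genes lie above 80% at both sizes, the Tubb2 pair between 45.0% and 65.1%, and Tuba4a, Tubb3, Tubb5 and Tubb6 at 2.4% or less.

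The levels of the 9 genes spanned nearly 2 orders of magnitude. Tubb5, the broadly expressed beta isotype of dividing cells, was the most abundant, with a mean of 228 FPKM over the 4 libraries. Tuba1b, the broadly expressed alpha isotype, followed at 69.1 FPKM, and neither range overlapped that of its neighbours in this order. Next came Tuba1c at 42.6, Tuba1a at 30.3, Tuba4a at 25.0, Tubb6 at 24.4 and Tubb2a at 21.6 FPKM. Across the 4 libraries, treated and untreated together, the range of each of the first 4 of these overlapped that of the next one. Within every single library, however, Tuba1c was the highest of the 5 and Tubb6 lay above Tubb2a. The order of Tuba1a, Tuba4a and Tubb6 changed between libraries. Tubb2b and Tubb3, isotypes known from neurons, were lowest at 3.77 and 2.71 FPKM. Their ranges overlapped as well, though Tubb2b was the higher of the pair in every library.

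**Figure D2:**
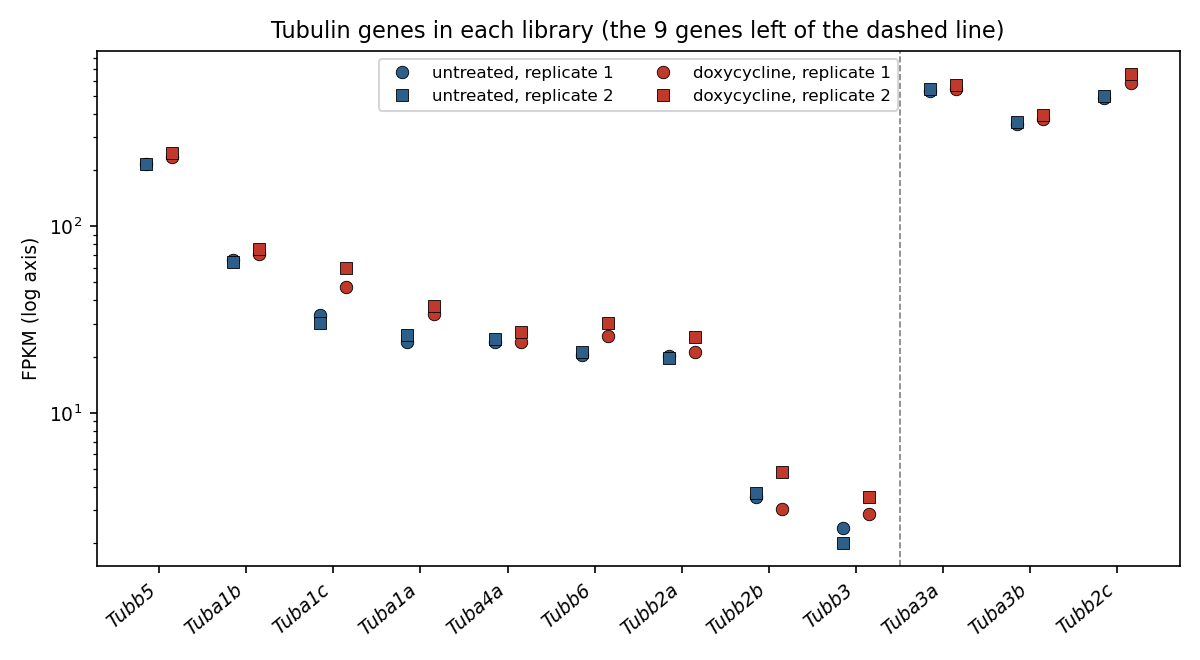
FPKM (log axis) of each tubulin gene in the 4 libraries; blue marks untreated, red doxycycline, circles replicate 1 and squares replicate 2, with no averaging. Tubb5 lies above 200 FPKM in every library and Tubb2b and Tubb3 below 5, while Tuba3a, Tuba3b and Tubb2c, right of the dashed line, lie above 350.

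The 9 genes did not include the tubulins with the most RNA in these cells. All other alpha and beta tubulin symbols in the tables were examined, 7 in all, and 3 of them stood above every one of the 9. Tuba3a and Tuba3b, alpha isotypes known for expression in testis, averaged 545 and 371 FPKM, and Tubb2c, the beta isotype now named Tubb4b and known from axonemes as well as dividing cells, averaged 557 FPKM. The 4 alpha genes held 14.1% ± 0.316 of the summed alpha FPKM without doxycycline and 16.6% ± 0.783 with it (SD, n = 2 each). The 5 beta genes held 34.6% ± 0.466 and 32.6% ± 0.626 of the summed beta FPKM. Tuba8, Tubal3, Tubb1 and Tubb4 averaged under 1 FPKM. Of the 100-base coding windows, 35.3% in Tubb2c, 11.3% in Tuba3a and 13.2% in Tuba3b occurred in a transcript of another symbol. Their levels are subject to shared reads as well.

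With doxycycline, 8 of the 9 genes were higher in both pairs of same-numbered libraries, against 32.8% of all tested genes, and Tubb2b was the exception. None was lower in both pairs (34.0% of all tested genes). In 7 of the 9 both treated libraries lay above both untreated ones, which held for 23.5% of all tested genes. Not one of the 9 reached limma's threshold (0.218% of all tested genes were called higher), while 6 were higher at an unadjusted p under 0.05 (8.46% of all tested genes). With the replicate number as a block, which compares libraries taken to be of the same clone, Tuba1a, Tuba1c and Tubb6 rose, 3 of 9 against 2.73% of all tested genes. The Tuba1 genes can share reads, as can Tubb2a and Tubb2b, so these counts are not of independent genes. With near-identical copies summed, chosen after the data were seen, 2 tubulin rows passed limma's test with the block: the Tuba1 sum and Tubb6. The same 3 passed limma's test without doxycycline replicate 1, in a fit that called 0.453% of genes higher. With a minimum of 5 FPKM, Tuba1a and Tuba1c passed limma's test, against 0.885% of the genes then tested. None of the 9 passed with median scaling, robust moderation or no filter on low values. The median log2 change of the 9 was 0.20, at 0.13 in pair 1 and 0.35 in pair 2, and that of all tested genes was -0.002. All changes given here are differences of log2(FPKM + 1), a scale on which low genes such as Tubb3 show less than their fold in FPKM.

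Among the alpha genes, Tuba1c had the largest change. It measured 47.1 and 59.6 FPKM under doxycycline against 33.4 and 30.1 FPKM in untreated cells, in replicates 1 and 2 respectively. Both treated libraries were thus above both untreated ones, and the treated ones were further apart (53.4 ± 8.82 against 31.8 ± 2.28 FPKM, SD, n = 2 each). That is a 1.68-fold difference of means, 1.41-fold in pair 1 and 1.98-fold in pair 2. Its log2 change of 0.72 ± 0.11 (SE) ranked 30 from the top among the 11924 tested genes, with a limma adjusted p of 0.0717, and of 0.0121 with the block. The gene lies on chromosome 15 from 98860321 to 98868536 (mm9).

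Tuba1a, whose product is abundant in developing neurons, gave nearly the same change in both pairs. It measured 33.8 and 37.4 FPKM under doxycycline against 23.9 and 26.1 FPKM in untreated cells, and the groups did not overlap. The fold was 1.41 in pair 1 and 1.43 in pair 2, and the log2 change 0.49 ± 0.07 (SE). Its limma adjusted p was 0.0578 and 0.00171 with the block, the lowest of the 9 in each fit (chromosome 15, 98780277 to 98783932, mm9).

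Tuba1b, the most abundant alpha gene of the 4, differed less. It measured 70.9 and 75.7 FPKM under doxycycline against 65.7 and 64.0 FPKM in untreated cells, again without overlap. The log2 change was 0.17 ± 0.05 (SE), the limma adjusted p 0.206 and, with the block, 0.0767 (chromosome 15, 98761861 to 98764821, mm9). The ratio of Tuba1c to Tuba1b was 0.664 and 0.787 with doxycycline and 0.508 and 0.471 without. That ratio did not overlap between groups, but an exact permutation test of 2 against 2 libraries cannot give a two-sided p below 0.333.

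The 3 Tuba1 genes summed to 151.9 and 172.7 FPKM with doxycycline and to 123.0 and 120.2 FPKM without. Their sum was thus 1.33-fold higher, with no overlap. Treated as 1 row in the fit, an alternative chosen after the data were seen, it had a log2 change of 0.41 ± 0.06 (SE). Its limma adjusted p was 0.0729, and 0.0114 with the block.

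Tuba4a, an alpha gene that does not encode the final tyrosine found in most others, had the smallest change of the alpha genes. It measured 24.0 and 27.3 FPKM under doxycycline against 24.0 and 24.7 FPKM in untreated cells, so the groups overlapped. Its log2 change was 0.07 ± 0.07 (SE) and the limma adjusted p 0.648 (chromosome 1, 75211548 to 75215828, mm9). Without doxycycline replicate 2 the change was -0.02. In the annotation, 46.7% of the 100-base windows of the whole transcript, none of them coding, also occur in transcripts of Stk16, a neighbour on the opposite strand. Whether strand was used in counting is not given in the sources used here. Stk16 measured 14.6 and 14.2 FPKM under doxycycline against 15.4 and 14.6 FPKM in untreated cells.

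**Figure D3:**
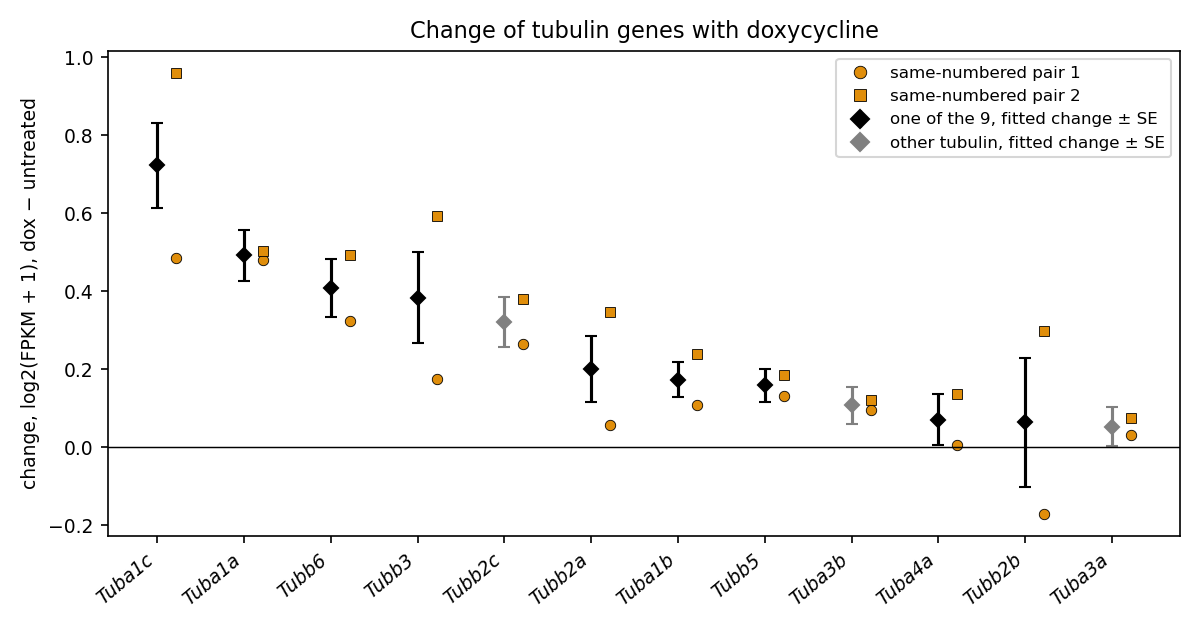
Change with doxycycline on the log2(FPKM + 1) scale; diamonds give the fitted change ± SE (black for the 9 genes, grey for 3 other abundant tubulins), orange circles and squares the changes in same-numbered pairs 1 and 2. The order runs from Tuba1c at 0.72 to Tuba3a at 0.05, and among these 12 genes only Tubb2b had a pair below 0.

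Among the beta genes, Tubb6 had the largest change, and it shares no coding window with another symbol. Tubb6, a widely expressed isotype, measured 25.9 and 30.1 FPKM under doxycycline against 20.5 and 21.1 FPKM in untreated cells. The groups did not overlap, and the means differed 1.35-fold. The log2 change was 0.41 ± 0.07 (SE), with a limma adjusted p of 0.105, and of 0.0112 with the block. The gene lies on chromosome 18.

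Tubb5 differed by little but evenly. It measured 236 and 245 FPKM under doxycycline against 215.5 and 215.6 FPKM in untreated cells, so the untreated libraries were nearly equal and both treated ones lay above them. The log2 change was 0.16 ± 0.04 (SE), or 1.12-fold. Its limma adjusted p was 0.203 and 0.0622 with the block (chromosome 17, 35970864 to 35975246, mm9).

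Tubb3, widely used as a marker of neurons, was low, and its pairs differed. It measured 2.86 and 3.55 FPKM under doxycycline against 2.41 and 2.01 FPKM in untreated cells. Both treated libraries were higher, by 1.18-fold in pair 1 and 1.76-fold in pair 2. The authors' deposited bounds, present for doxycycline replicate 1 alone, were 2.27 and 3.44 FPKM, a half-width of 20.4% of the value that reaches below its untreated partner. The log2 change was 0.38 ± 0.12 (SE), the limma adjusted p 0.228 and, with the block, 0.102 (chromosome 8, 125935463 to 125945910, mm9).

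Tubb2a and Tubb2b, neighbours on chromosome 13, did not differ evenly. Tubb2a measured 21.1 and 25.4 FPKM under doxycycline against 20.3 and 19.8 FPKM in untreated cells, a log2 change of 0.20 ± 0.09 (SE; limma adjusted p = 0.339). Leaving out 1 library moved that change to between 0.07 and 0.33. Tubb2b measured 3.03 and 4.79 FPKM under doxycycline against 3.54 and 3.70 FPKM in untreated cells, so the treated libraries lay on either side of the untreated ones. Its log2 change was 0.06 ± 0.17 (SE; limma adjusted p = 0.885), and -0.20 without doxycycline replicate 2. Summed, the pair stood at 24.1 and 30.2 FPKM against 23.8 and 23.5 FPKM, a log2 change of 0.18 ± 0.10 (SE; limma adjusted p = 0.427). Tubb2a spans 34166146 to 34169877 and Tubb2b 34218876 to 34222223 (mm9).

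The authors' deposited bounds of doxycycline replicate 1 were widest for the lowest genes. The half-width was 1.76% of the value for Tubb5, between 4.34% and 7.83% for the 6 genes from Tuba1b down to Tubb2a, and 18.6% for Tubb2b. Within pair 1, the differences of Tuba4a (1.00-fold, half-width 6.36%), Tubb2a (1.04-fold, 7.83%), Tubb2b (0.856-fold, 18.6%) and Tubb3 (1.18-fold, 20.4%) were smaller than these half-widths. Bounds of the untreated partner are not given, so whether such differences could be detected cannot be told.

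Within the 4 alpha genes, none of the 4 shares overlapped between the groups. Tuba1c made up 26.8% and 29.8% of the summed FPKM of the 4 alpha genes with doxycycline, and 22.7% and 20.8% without. Tuba1b made up 40.3% and 37.9% against 44.7% and 44.2%, and Tuba4a 13.7% and 13.6% against 16.3% and 17.0%. In FPKM neither was lower: the folds in pairs 1 and 2 were 1.079 and 1.182 for Tuba1b, 1.003 and 1.104 for Tuba4a. Tuba1a held 19.2% and 18.7% against 16.3% and 18.0%, higher in both treated libraries like the share of Tuba1c. Set against all alpha symbols, of which Tuba3a and Tuba3b are the largest, the picture differed for 2 genes. There Tuba1b was higher with doxycycline, at 6.49% and 6.51% against 6.39% and 6.11%, and Tuba4a overlapped, at 2.20% and 2.34% against 2.33% and 2.36%. Tuba1c again held more in both treated libraries, at 4.31% and 5.12% against 3.24% and 2.88%. The split among the Tuba1 genes is subject to the shared reads given above.

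Within the 5 beta genes, Tubb5 kept most of the sum, at 81.7% and 79.3% with doxycycline and 82.2% in both untreated libraries. Tubb6 held 8.96% and 9.74% against 7.82% and 8.05%, without overlap. Alpha genes made up 37.8% and 39.3% of the 9-gene sum with doxycycline and 35.9% and 35.6% without. Over all alpha and beta symbols the order was the other way, with alpha at 55.6% and 54.7% with doxycycline and 57.9% and 57.8% without, Tubb2c being the largest beta term. Shares of the same sum are tied to each other, and no test was run on them.

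**Figure D4:**
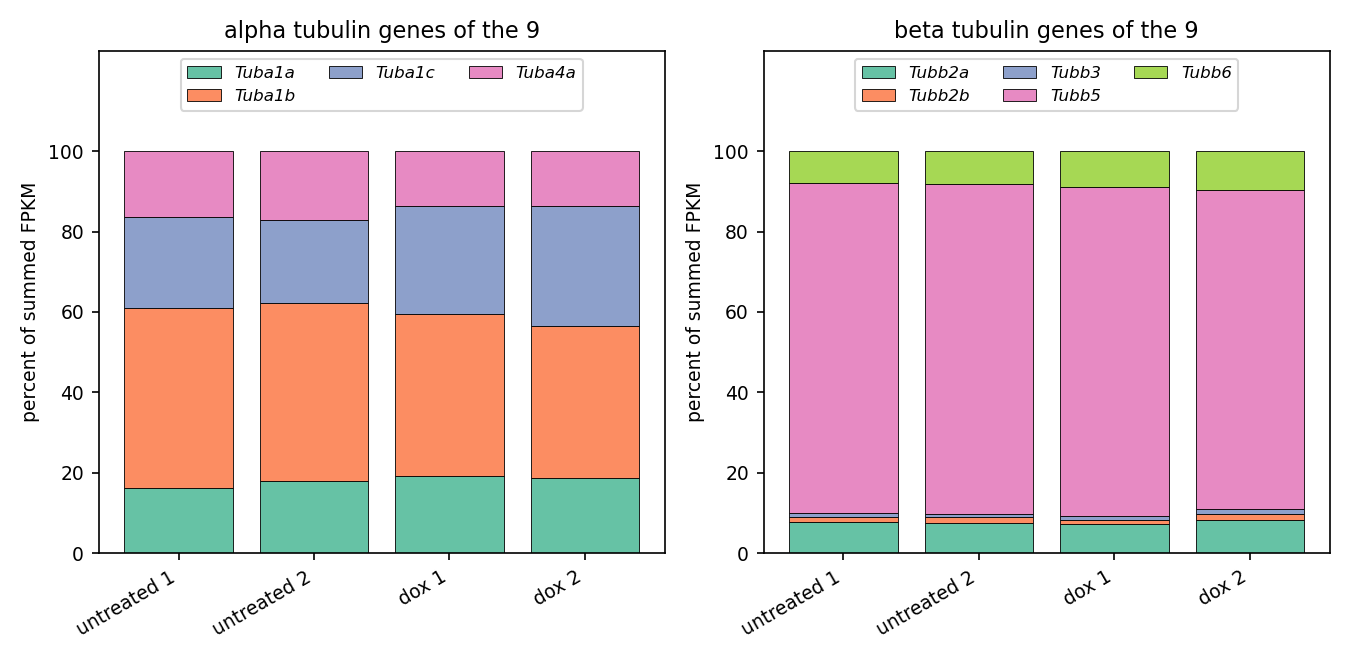
Percent of the summed FPKM held by each of the 4 alpha genes (left) and 5 beta genes (right) in every library, 1 bar per library. The Tuba1c segment is 20.8% and 22.7% in the untreated libraries and 26.8% and 29.8% in the treated ones, and Tubb5 fills 79.3% to 82.2% of each beta bar.

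Of the abundant tubulins outside the 9, Tubb2c rose with the block. It measured 586 and 653 FPKM under doxycycline against 487 and 502 FPKM in untreated cells, a log2 change of 0.32 ± 0.06 (SE). Its limma adjusted p was 0.131, and 0.0122 with the block. Tuba3b was at 375 and 394 FPKM against 351 and 362 FPKM, a log2 change of 0.11 ± 0.05 (SE; limma adjusted p = 0.351). Tuba3a was at 542 and 569 FPKM against 530 and 540 FPKM, a log2 change of 0.05 ± 0.05 (SE; limma adjusted p = 0.655). Both treated libraries were above both untreated ones for each of the 3, which held for 23.5% of all tested genes.

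Genes that act on tubulin were compared with the 9 by counts and medians. Of 23 gamma-tubulin and nucleation genes, which seed microtubules, none was higher without overlap (23.5% of all tested genes), 7 were lower without overlap (24.9% of all tested genes), and the median log2 change was -0.01. None passed limma's test, and 4 were lower at an unadjusted p under 0.05 (6.63% of all tested genes). Tubgcp2, a subunit of the gamma-tubulin complex whose gene lies near Mir202, was the 1 gene of these that fell with the block (0.973% of all tested genes). It was at 11.0 and 10.3 FPKM with doxycycline against 14.7 and 14.9 FPKM, a log2 change of -0.44 ± 0.06 (SE; limma adjusted p = 0.0578, block 0.00951). Akap9, a centrosomal scaffold, was at -0.25 (0.231). Gamma-tubulin itself, Tubg1, was at 48.4 and 53.5 FPKM against 58.4 and 58.7 FPKM, a log2 change of -0.20 ± 0.05 (SE; limma adjusted p = 0.209).

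Of 23 genes listed for tubulin folding, most encode the chaperonin and cofactors that fold alpha and beta tubulin and join them. Of the 23, 13 were higher without overlap (23.5% of all tested genes) and 4 lower (24.9%). Their median log2 change was 0.10. None passed limma's test in either fit, and at an unadjusted p under 0.05 there were 5 higher genes and 1 lower gene (8.46% and 6.63% of all tested genes). Arl2, the small GTPase that works with the folding cofactors, was at -0.22 (limma adjusted p = 0.318) and the beta-tubulin cofactor Tbca at 0.19 (0.393). Ttc5, counted in this list, is no folding factor but the ribosome-associated reader that triggers tubulin mRNA decay. It was at 17.7 and 18.3 FPKM with doxycycline against 16.4 and 17.1 FPKM, a log2 change of 0.10 ± 0.05 (SE, limma adjusted p = 0.415).

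Of 15 tested genes listed for tubulin modification, none was higher without overlap (23.5% of all tested genes), 6 were lower (24.9%), and the median log2 change was -0.06. None passed limma's test in either fit, and 2 were lower at an unadjusted p under 0.05 (6.63% of all tested genes). Ttll12, of the tubulin tyrosine ligase-like family, was at -0.18 (limma adjusted p = 0.243), and the deacetylase Hdac6 at -0.15 (0.240). Of 29 tested microtubule-associated genes, 9 were higher and 5 lower without overlap (23.5% and 24.9% of all tested genes), with a median log2 change of 0.01. None passed limma's test, while 4 genes had an unadjusted p under 0.05 with a higher level and 2 with a lower one (8.46% and 6.63% of all tested genes). With the block 4 rose (2.73% of all tested genes). Prc1, which bundles microtubules at the spindle midzone, had a log2 change of 0.39 ± 0.05 (SE; limma adjusted p = 0.0522, block 0.00635). Tpx2, a spindle assembly factor, was at 0.32 (0.0701, block 0.0115), Tacc3 at 0.32 (0.0697, block 0.0122) and Tacc2 at 0.31 (0.155, block 0.0190).

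**Figure D5:**
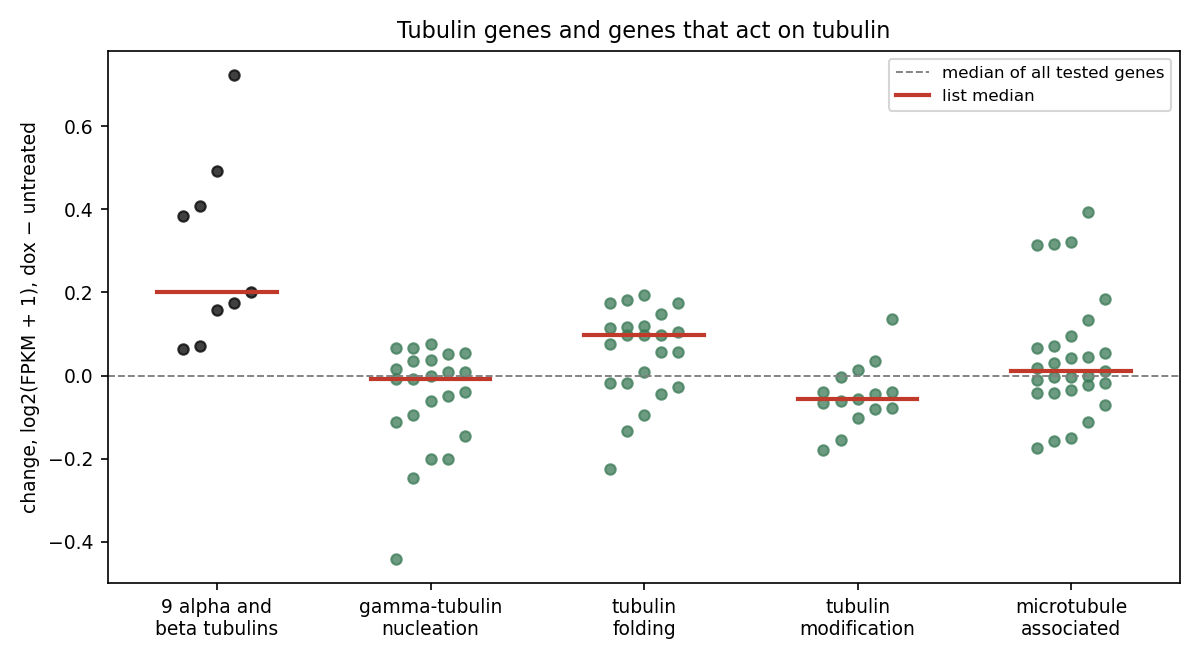
Fitted change with doxycycline (log2(FPKM + 1) scale) of each tested gene of 5 lists, 1 point per gene, with the list median in red and the median of all tested genes as a dashed line. The 9 tubulins lie between 0.06 and 0.72 with a median of 0.20, the folding genes have a median of 0.10, and the medians of the other 3 lists lie between -0.06 and 0.01.

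The gene whose pattern over the 4 libraries was nearest to that of the tubulins was another tubulin. The reference was the mean centred log2 profile of the 7 genes with at least 20 FPKM, and 3986 other genes of at least that level were ranked by Euclidean distance to it. The profile was 0.0689 and 0.2492 with doxycycline and -0.1582 and -0.1599 without. Tubb2c was the nearest, at 0.0351, against a median distance of 0.341. A gene with no change at all would lie at about that median, so the contrast shows little beyond a rise with doxycycline. The distances of the 7 genes themselves were not computed. Ccdc58 (0.0381), the mitotic kinesins Kif20a (0.0400) and Kif22 (0.0453) and the basement membrane protein Nid1 (0.0474) followed.

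Markers of other cell types were low, with exceptions. The 10 neuron markers summed to 213.5 and 243.8 FPKM with doxycycline and to 176.0 and 195.9 FPKM without, so the groups did not overlap. Nearly all of that was the neurofilament gene Nefm, with a mean of 201.4 FPKM. Its log2 change was 0.30 (limma adjusted p = 0.205, block 0.00734). Of the 10 markers, 7 averaged under 1 FPKM, among them the defining neuronal genes Rbfox3, Snap25 and Syt1. The 10 feeder fibroblast markers summed to between 103.8 and 107.6 FPKM with doxycycline and between 95.4 and 111.4 FPKM without, led by Col1a1 at a mean of 38.8 FPKM. Those of the 9 Sertoli markers ran from 8.58 to 9.80 against 7.56 to 7.81 FPKM, led by Sox9 at a mean of 3.37 FPKM, with Amh, Gata4 and Fshr under 1 FPKM, and did not overlap either. Sums of the 8 Leydig and peritubular markers (5.15 to 5.83 against 4.76 to 5.36 FPKM, led by Des) and of the 8 macrophage and blood markers (5.68 to 8.47 against 5.70 to 6.44 FPKM, led by Cd68) overlapped. The part of other cell types in the tubulin values was not tested.

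Promoter sequences from RefSeq (GRCm38.p6) were matched for 7 of the 9 genes. Those of Tuba1c, with the largest change, and Tubb5, the most abundant, are printed as the 250 bases before the annotated start, 5′ to 3′ on the strand of the gene. Capitals mark CCAAT, in either orientation. The windows are chr15:99029641-99029890, plus strand, and chr17:35838302-35838551, minus strand.
Tuba1c: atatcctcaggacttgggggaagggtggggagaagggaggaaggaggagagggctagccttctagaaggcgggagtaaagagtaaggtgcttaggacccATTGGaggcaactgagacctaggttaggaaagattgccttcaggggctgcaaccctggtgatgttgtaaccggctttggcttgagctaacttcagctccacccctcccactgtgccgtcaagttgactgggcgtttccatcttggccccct
Tubb5: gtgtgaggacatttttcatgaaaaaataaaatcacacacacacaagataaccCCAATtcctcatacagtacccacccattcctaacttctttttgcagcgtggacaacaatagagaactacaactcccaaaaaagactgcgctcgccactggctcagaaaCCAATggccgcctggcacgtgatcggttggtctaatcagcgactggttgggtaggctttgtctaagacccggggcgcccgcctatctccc
On both strands, CCAAT was present in 4 of the 7 (Tuba1a, Tuba1c, Tubb3 and Tubb5) and in 34.5% of 27025 promoters of the same length. GGGCGG was present in 5 of the 7 (32.9% of all), TATAAA in Tubb2a alone (13.0%) and TTTGAA in none (16.3%). Outside the 9, the promoter of Tubb2c held 5 copies of CCAAT, that of Tuba3a 3 and that of Tuba3b 2. Those of Tuba8, Tubal3, Tubb1 and Tubb4 held none. The share of all promoters with several copies was not counted. These are letter matches, and binding of any factor was not measured here.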

How the data were processed

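Per the labels' protocols, TRIzol was used to extract total RNA, which a HiSeq4000 sequenced. The authors deposited FPKM, per the file headers, with each library in a table of its own. The submitters' processing notes list TopHat2 2.0.6, Cufflinks 2.0.2, Cuffdiff and mm9, with no role or order. Annotation, strand setting, read length and read depth: not given in the sources used here. For relative depth, genes below 0.1 FPKM were used: their ratios to doxycycline replicate 1 lay within 1% of ratios of whole numbers up to 6 for 73.9%, 76.1% and 76.8% of 1115, 1072 and 1168 genes.

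FPKM of symbols on several lines (259) were summed. Those averaging 1 FPKM or more entered limma 3.58.1 in R 4.3.3 as log2(FPKM + 1), with a variance trend, two-sided, Benjamini-Hochberg adjustment over all tested genes and a threshold of 0.05. The fit was tried on simulated data with independent normal noise, where it had only to return the mean of set changes. That simulation held no clone effect and no shared reads. How often changes of the size seen here would be called is not reported here. An alternative added replicate number to the model as a block. Because the study used 2 clones, libraries sharing a number were treated as 1 clone, although no title says so. Deviations of same-numbered libraries correlated at 0.215 across genes. The p-values reflect in part how far these libraries vary for the gene, with 2 residual degrees of freedom, or 1 with the block. The rest comes from the variances of all tested genes, from which limma draws a prior. That prior counted for 4.23 degrees of freedom, or 6.21 with the block. Sequences were processed in Python 3.11.15 with biopython 1.88; RefSeq coordinates are GRCm38.p6 and were not mixed with mm9. Coding sequences themselves are not reported here.

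The 9 genes, the lists and the tests were chosen with earlier results of these data known. Of each pathway list, genes past the threshold and the 2 largest changes are named, as are the nearest profiles and each marker list's most abundant gene. Tuba3a, Tubg1, Ttc5, Tacc2, Tacc3, Stk16, Nanos3 and Utf1 were added after their values were seen.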

Additional observations from a re-analysis of the deposited data

How the results depend on the processing

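Without a replicate block, 33 genes changed over all genes and 0 of the 9 tubulins. With the replicate block the counts were 441 and 3, with near-identical copies summed as well 440 and 2, with a minimum of 5 FPKM 88 and 2, and with quantile normalization 1 tubulin passed. With no filter on low values 1 gene changed. Leaving out 1 library gave between 2 and 60 genes and between 0 and 3 tubulins (60 genes when doxycycline replicate 1 was left out, 5 for doxycycline replicate 2, 5 for untreated replicate 1 and 2 for untreated replicate 2). Of the tubulins, Tuba1a, Tuba1c and Tubb6 passed without doxycycline replicate 1, and none passed in the other 3 such fits. Leaving out 1 library, the log2 change of Tuba4a ran from -0.0165 to 0.158 and that of Tubb2b from -0.197 to 0.324, and both were reversed without doxycycline replicate 2. The other 7 kept their direction in the 13 to 15 settings that gave each a value. Over those settings Tuba1c ran from 0.56 to 0.89 and its adjusted p from 0.0121 to 0.317, Tuba1a from 0.42 to 0.56 (0.00171 to 0.277) and Tubb6 from 0.30 to 0.51 (0.0112 to 0.440). Weighted by transcript length, alpha genes made up 33.4% of the 9-gene sum with doxycycline and 30.8% without. The replicate block changed no other call of the 9. The cause of the differing counts was not tested. Depth in reads is unknown, and the deposited bounds are widest for Tubb2b and Tubb3.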
